A study of Homo sapiens with 12 samples.

Results

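MBD2 knockout HUDEP-2 cells were compared with control HUDEP-2 cells after both had been moved into differentiation medium. HUDEP-2 is an immortalized human erythroid progenitor line made from umbilical cord blood. Of the 12 libraries of the series, 6 belong to this comparison: 3 from cells labelled MBD2KO with genotype MBD2-/-, and 3 from cells with a scrambled guide (sgSCR), whose genotype is labelled WT. The members of the comparison are genes, and 17175 of the 60483 in the count table had enough counts to be tested. Both groups carried the same stage label, late basophilic erythroblast, and grew in the same medium. This was IMDM with human AB serum, erythropoietin, doxycycline, insulin, heparin, holo-transferrin and glutamine. Differentiation lasted 3 days by the extraction protocol and 5 days by the growth protocol. The labels do not say whether the knockout cells were one clone or whether the replicates were separate cultures, so the spread behind each p-value may be technical.

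MBD2 is a protein that binds methylated CpG dinucleotides and recruits the NuRD complex, which joins a nucleosome remodeling ATPase to histone deacetylases. In adult-type erythroid cells MBD2 and NuRD are known for holding the fetal gamma-globin genes silent. An erythroblast maturing past the basophilic stage builds up heme, hemoglobin and membrane skeleton, divides a last few times, condenses its nucleus, loses it, and clears its mitochondria. Stem cell factor signaling through KIT and the transcription factors GATA2 and MYB mark the progenitor that it leaves behind.

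The 6 libraries held 7667997 to 13705360 counts each. Values below are CPM, counts scaled to library size with TMM factors, effects are log2 changes of knockout minus control with their standard error, and a gene is called at an adjusted p under 0.05 in edgeR's quasi-likelihood test. A gene not called is one for which no difference was shown, not one shown to be equal. With 3 libraries a group, the smallest p of an exact two-sided permutation test is 0.1, and every p below is from that fit over all genes. The first principal component held 66.1% of the variance over these 6 libraries, and the groups sat at -40.6 to -39.4 and at 38.4 to 42.1 on it. Ribosomal RNA genes took 0.562 to 1.05% of control counts and 1.68 to 2.74% of knockout counts. The part of this difference in the results was not tested beyond a scaling that left out rRNA, mitochondrial and globin genes, under which 2884 genes were called higher and 2804 lower. MBD2 itself (chr18:54151601-54224788, build hg38, minus strand) gave 61.4, 59.1 and 58.2 CPM in the control libraries and 16.8, 16.1 and 14.6 CPM in the knockout libraries, a log2 change of -1.91 ± 0.09 (adjusted p = 5.68e-11 in edgeR's quasi-likelihood test).

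Erythroid markers were present in both groups. All 11 erythroid markers were tested and called higher in knockout, from GATA1 and EPOR to AHSP and ALAS2, against 16.8% of all genes tested. Their summed level ran from 10370.5 to 10900.9 CPM in control and from 19210.9 to 19822.3 CPM in knockout libraries, most of it TFRC. Markers of other blood lineages were mixed. Over 3 libraries a group, control and knockout cells gave 1 and 0 counts of the platelet chemokine PF4, 4 and 2 of the neutrophil peroxidase MPO, and 0 and 0 of the T cell receptor chain gene CD3E. Others were well above 0, such as the platelet integrin ITGA2B at 11.2 against 10.2 CPM, not called, and the Fc receptor gene FCGR1A at 26.8 against 39.2 CPM. The megakaryocyte-list genes LTBP1 and TUBB1 rose by 2.05 and 1.94, FCGR1A rose by 0.55, and the mast cell genes TPSB2 and HPGD fell from 1032 and 1707 to 176 and 212 counts. Of the markers listed, 3 of 20 megakaryocyte, 3 of 26 neutrophil and monocyte, 2 of 27 lymphoid, 1 of 25 stromal and endothelial and 0 of 23 mast cell and basophil genes were at 0 in all 6 libraries. Summed over the list, megakaryocyte markers reached 27.2 to 28.4 CPM in control and 67.5 to 73.5 CPM in knockout libraries, and neutrophil markers 34.9 to 36.2 and 44.7 to 56.0 CPM. Their part in the results was not tested.

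The knockout and control cells differed at many genes in both directions. At the threshold 2882 genes were higher in knockout (16.8% of those tested) and 2805 lower (16.3%), 33.1% in either direction. The counts of list members below are to be read against these shares. The median change was 0.63 among the genes called higher and -0.55 among those called lower, so most calls were of modest size. At least 2-fold differences were called for 783 genes higher (4.56%) and 601 lower (3.5%). At the TMM scaling 212 genes were at least 4-fold higher against 128 lower, and 31 at least 16-fold higher against 8 lower. The 783 genes took 2.91 ± 0.705% of all counts in control and 8.62 ± 2.31% in knockout libraries (SD, n = 3). Single knockout libraries were uneven, at 11.1, 8.20 and 6.55%. Part of this share came from genes whose groups overlapped, such as HBB and FP671120.3, both highest in knockout replicate 1. The 601 genes took 1.05 ± 0.0243% and 0.358 ± 0.0142%. Libraries of the 2 groups did not overlap for 5564 of the 5687 called genes, against 23.2% of all tested genes with every knockout library higher and 23.6% with every one lower. With libraries scaled by their totals alone, the median over all genes was -0.17 in place of -0.01, and 1843 genes were called higher and 4826 lower, and the balance of the calls of at least 2-fold turned to 604 higher and 894 lower, so directions below are relative to the TMM scaling.

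**Figure D1:**
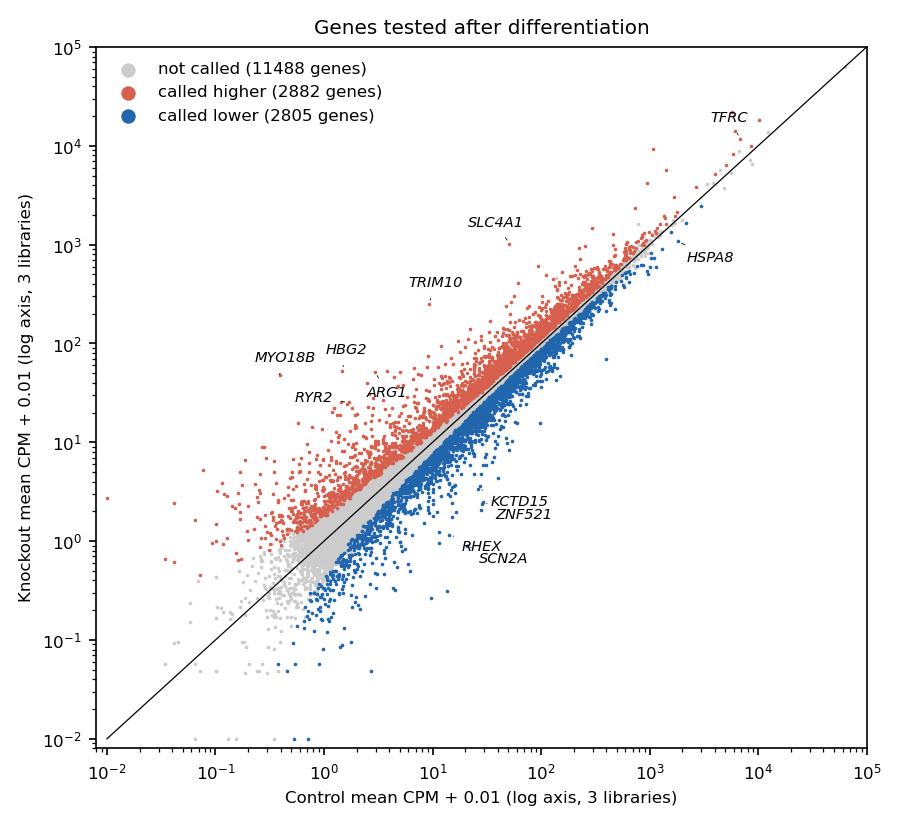
Mean CPM plus 0.01 of each tested gene in the control libraries (x) and the knockout libraries (y) after differentiation, both on log axes, with the line of equal levels. The 2882 genes called higher are red, the 2805 called lower blue, and the 11488 not called grey, and TRIM10, MYO18B and SLC4A1 stand far above the line while SCN2A and RHEX stand far below it.

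Several of the largest increases were in genes with low levels in control cells. Genes named for the largest fold change in either direction had to have groups that did not overlap. Their separation was thus set by that choice. MYO18B (chr22:25742144-26031041, plus strand) is an unconventional myosin best known from muscle, and gave 0.281, 0.436 and 0.421 CPM in the control libraries and 47.8, 49.0 and 48.4 CPM in the knockout libraries. The 3 libraries of a group lay close together and the groups were far apart, a change of 6.94 ± 0.19 (adjusted p = 1.81e-13 in edgeR's quasi-likelihood test). TRIM10 (chr6:30151945-30160934, minus strand), a RING finger protein needed in late red cell formation, measured 9.94, 9.01 and 8.84 CPM in the control libraries and 236, 267 and 249.8 CPM in the knockout libraries. Every knockout library was above every control library, and the change was 4.76 ± 0.10 with an adjusted p of 8.04e-15. ARG1 (chr6:131573144-131584332, plus strand), the arginase that splits arginine into ornithine and urea and is present in human red cells, measured 3.56, 2.33 and 2.95 CPM in the control libraries and 52.0, 51.0 and 51.6 CPM in the knockout libraries. Its change was 4.14 ± 0.13, with the knockout libraries almost equal to each other. TSPAN5 (chr4:98470367-98658629, minus strand), a tetraspanin that guides the protease ADAM10 through the cell, measured 0.938, 1.16 and 1.58 CPM in the control libraries and 24.1, 20.2 and 22.1 CPM in the knockout libraries. No library of one group came near the other, and the change was 4.18 ± 0.21.

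Other large increases were in genes of varied function. RYR2, the calcium release channel of heart muscle, rose by 3.89 from 1.69 ± 0.189 to 25.4 ± 1.19 CPM (SD, n = 3). IRAK2, a kinase of interleukin-1 and Toll-like receptor signaling, rose by 3.82, and C5, a complement protein, by 3.70. ART4, which carries the Dombrock blood group, rose from 3.80 ± 0.745 to 52.7 ± 4.28 CPM. PAQR9, a membrane receptor of the progestin and adipoQ family, rose by 4.19 and SH3BGRL2 by 3.91. RUNX1T1, also called ETO, a corepressor best known from a leukemia fusion with RUNX1, rose by 4.86 from 0.561 ± 0.238 to 15.8 ± 0.817 CPM.

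Promoter sequence is shown for 4 genes that rose, because MBD2 binds methylated CG dinucleotides and these starts differ in how many CG they hold. Each is 250 bases before to 50 after the RefSeq start on build GRCh38.p14, 5′ to 3′ on the gene's strand, with each CG in capitals. Windows of all 35116 starts in that table hold a median of 14 CG, and 3.96% hold none. TSPAN5 (chr4:98658562-98658861, minus strand) has 50, CPOX (chr3:98593562-98593861, minus strand) 31, ALAS2 (chrX:55030928-55031227, minus strand) 3 and TRIM10 (chr6:30161162-30161461, minus strand) 0. DNA methylation was not measured in these libraries, and the count of CG describes the letters only.
TSPAN5: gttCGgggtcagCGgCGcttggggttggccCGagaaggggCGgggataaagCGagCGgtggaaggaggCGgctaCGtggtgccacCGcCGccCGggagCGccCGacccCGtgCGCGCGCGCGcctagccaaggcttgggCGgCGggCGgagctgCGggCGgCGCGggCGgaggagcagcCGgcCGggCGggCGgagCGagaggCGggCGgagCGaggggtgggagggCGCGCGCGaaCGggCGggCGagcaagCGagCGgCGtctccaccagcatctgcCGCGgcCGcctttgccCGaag
CPOX: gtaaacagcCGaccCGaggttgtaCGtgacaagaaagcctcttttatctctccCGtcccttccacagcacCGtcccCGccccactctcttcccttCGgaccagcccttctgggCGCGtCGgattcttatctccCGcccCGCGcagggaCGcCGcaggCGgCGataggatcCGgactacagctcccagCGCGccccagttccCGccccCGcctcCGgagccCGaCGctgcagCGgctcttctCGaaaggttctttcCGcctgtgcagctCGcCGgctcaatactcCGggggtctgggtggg
ALAS2: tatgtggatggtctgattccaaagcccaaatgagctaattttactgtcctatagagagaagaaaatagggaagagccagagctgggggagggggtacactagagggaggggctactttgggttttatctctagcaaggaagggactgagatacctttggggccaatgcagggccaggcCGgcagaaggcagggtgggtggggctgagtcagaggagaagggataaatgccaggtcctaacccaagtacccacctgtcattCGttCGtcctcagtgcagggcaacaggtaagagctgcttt
TRIM10: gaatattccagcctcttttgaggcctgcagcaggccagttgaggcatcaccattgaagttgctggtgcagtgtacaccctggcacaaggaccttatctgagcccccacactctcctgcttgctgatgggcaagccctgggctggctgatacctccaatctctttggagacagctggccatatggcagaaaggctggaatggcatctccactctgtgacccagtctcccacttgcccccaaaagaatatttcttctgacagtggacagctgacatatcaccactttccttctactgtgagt

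SCN2A, RHEX and ZNF521 were among the genes with the largest decreases. SCN2A (chr2:165239402-165392310, plus strand), the alpha subunit of a neuronal sodium channel, measured 23.0, 18.9 and 20.2 CPM in the control libraries and 0.586, 0.646 and 1.41 CPM in the knockout libraries. All 3 knockout libraries were at a small part of the control level, a change of -4.59 ± 0.20 (adjusted p = 2.82e-11 in edgeR's quasi-likelihood test). RHEX (chr1:206037231-206102459, plus strand), a membrane protein that acts with the erythropoietin receptor in erythroid cell expansion, went from 14.2 ± 1.28 to 1.16 ± 0.121 CPM (SD, n = 3). Its groups stood far apart, with a change of -3.60 ± 0.16 and an adjusted p of 4.11e-11. ZNF521 (chr18:25061926-25352190, minus strand), a zinc finger factor of early blood progenitors, measured 30.7, 27.0 and 29.4 CPM in the control libraries and 1.17, 2.26 and 3.94 CPM in the knockout libraries. The knockout libraries were uneven for this gene but all lay far below control, and the change was -3.60 ± 0.19. It lies on chromosome 18, most of whose tested genes were lower.

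Other decreases were in genes of varied function. AHNAK, a very large scaffold protein of the cell cortex, measured 407, 383 and 392 CPM in the control libraries and 66.5, 69.4 and 71.6 CPM in the knockout libraries, a change of -2.51 ± 0.07. The groups were separated by a wide gap. ELMO1 fell by 2.62 on the log2 scale, and its partner DOCK2 and the related DOCK10, which activate small GTPases, by 2.42 and 3.08. ANTXR2, a collagen-binding receptor that anthrax toxin also uses, fell by 3.13, and MACF1, which links actin to microtubules, fell by 1.10. RYR3, another calcium release channel, fell by 3.22 while RYR2 rose. CFAP161, a cilium protein, and C12orf75 fell by 3.77 and 3.60. In absolute terms the chaperones HSPA8 and HSP90AA1 and the mitochondrial ATP synthase subunit ATP5F1A were among the genes that lost the most CPM, with changes of -0.75, -0.57 and -0.49. ATP5F1A lies on chromosome 18, where the median over tested protein-coding genes was -0.43.

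**Figure D2:**
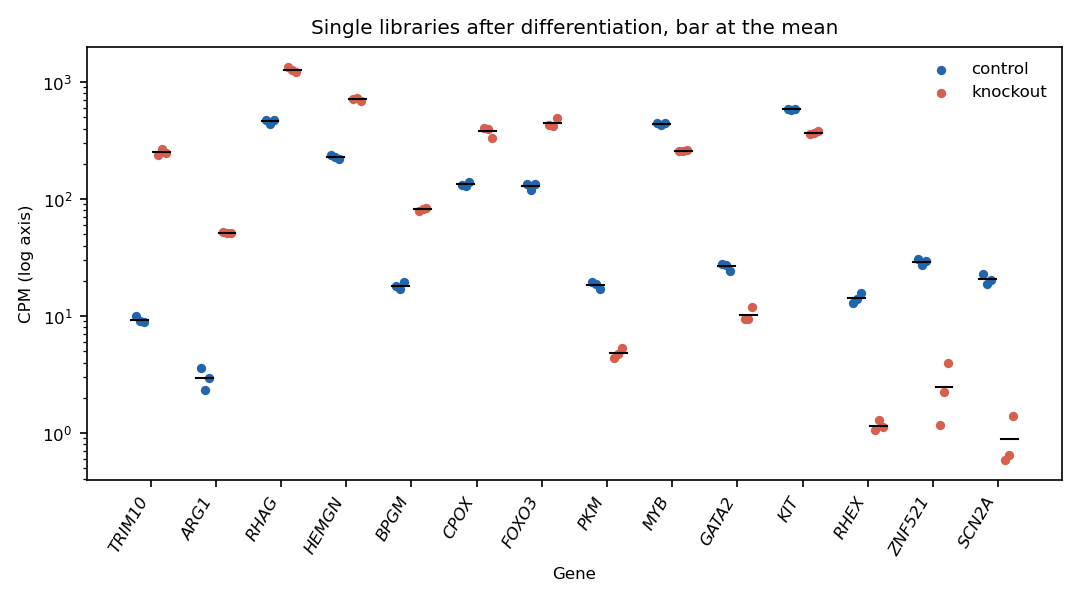
CPM of 14 genes in each library after differentiation on a log axis, with 3 control libraries in blue, 3 knockout libraries in red and a bar at each group's mean. The groups do not overlap for any gene shown, from TRIM10, ARG1 and FOXO3, higher in knockout, to RHEX, ZNF521 and SCN2A, lower in knockout.

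Heme synthesis genes rose at almost every step. In this list 14 of 15 tested members were called higher and 0 lower, with a median log2 change of 0.92, against -0.01 over all genes. ALAS2, the erythroid enzyme of the first step, measured 256, 254 and 245 CPM in the control libraries and 962, 943 and 1027 CPM in the knockout libraries. Each knockout library held more than any control library, and the change was 1.96 ± 0.07 (adjusted p = 2.37e-12 in edgeR's quasi-likelihood test). CPOX, which acts in the mitochondrial part of the pathway, measured 132, 130.0 and 141 CPM in the control libraries and 402, 399 and 334 CPM in the knockout libraries. All knockout libraries were above control for CPOX too, with a change of 1.49 ± 0.07. The cytosolic steps followed, with UROS at 1.27, UROD at 0.92 and ALAD at 0.79. FECH, which inserts iron into the ring, rose by 0.96 and the porphyrin transporter ABCB6 by 1.75. ALAS1, the first-step enzyme of other tissues, was the 1 member not called, at 23.1 against 22.9 CPM.

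Several genes of iron supply rose as well. For iron uptake and handling 12 of 24 tested members were called higher and 4 lower, with a median log2 change of 0.19, and 2 lower without control replicate 1 or 2 or knockout replicate 2 or 3. SLC25A37, or mitoferrin, which carries iron into mitochondria, measured 952, 957 and 929 CPM in the control libraries and 3963, 4090.1 and 4448 CPM in the knockout libraries. The gap between groups was wide, with a change of 2.14 ± 0.08, and it was among the 8 genes that gained the most CPM. The transferrin receptor gene TFRC rose by 0.79 ± 0.09 from 6817 ± 303 to 11768 ± 327 CPM. NCOA4, which delivers ferritin for breakdown, rose by 1.29, GLRX5 of iron-sulfur cluster assembly by 1.23, and ERFE, the hormone that lowers hepcidin, by 1.38. HFE, a partner of the transferrin receptor, fell by 1.71. Ferritin heavy chain FTH1 measured 168 against 161 CPM and was not called. Among genes of heme breakdown and export, 2 of 7 tested members were called higher and 1 lower, with a median log2 change of 0.02, but 2 higher and 2 lower with a median of -0.14 under scaling by library totals, and 0 lower without control replicate 1 or 3 or knockout replicate 1. The exporter ABCG2 rose by 1.73 and biliverdin reductase B, BLVRB, by 0.89, while HMOX1 measured 6.19 against 7.16 CPM, not called.

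Genes of the red cell membrane skeleton differed in direction. Over the list 12 of 26 tested members were called higher and 6 lower, with a median log2 change of 0.21. Band 3, the anion exchanger, SLC4A1, measured 54.2, 51.4 and 47.5 CPM in the control libraries and 881, 1001 and 1191 CPM in the knockout libraries. Its knockout libraries were all far above control, a change of 4.33 ± 0.14. Dematin, DMTN, rose by 1.83, protein 4.2, EPB42, by 1.41, tropomodulin TMOD1 by 1.17 and ankyrin ANK1 by 0.65. The intermediate filament vimentin, VIM, fell by 1.67 from 150.2 ± 13.5 to 47.3 ± 6.27 CPM, tropomyosin TPM4 by 0.90 and the nonerythroid spectrin SPTBN1 by 0.65.

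Blood group carriers were higher as a broad set. Of these, 24 of 31 tested members were called higher and 5 lower, with a median log2 change of 0.99, and 2 lower without control replicate 1 or knockout replicate 2. RHAG, the Rh-associated glycoprotein, measured 478, 439 and 472 CPM in the control libraries and 1355, 1259.7 and 1210.4 CPM in the knockout libraries. The change was 1.46 ± 0.08 and no library overlapped the other group. The water channel AQP1, which carries the Colton group, rose by 2.92. RHD and RHCE rose by 2.41 and 2.73, and the glycophorin gene GYPB by 1.62. RHD and RHCE are near copies, so the split of reads between them is uncertain, and GYPB likewise shares sequence within its family. CD47, the signal that protects cells from macrophages, fell by 0.86 and the complement inhibitor CD59 by 0.26. Without control replicate 1 or without knockout replicate 2 the adhesion receptor CD44 was not called (log2 change -0.28, adjusted p = 0.0129 with all libraries and 0.0780 and 0.0692 without either, edgeR's quasi-likelihood test).

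Red cell transporters were also mostly higher, with 21 of 32 tested members higher and 2 lower (median log2 change 0.54), but 18 higher and 5 lower with a median of 0.38 under scaling by library totals. GLUT1, SLC2A1, the glucose transporter of human red cells, measured 92.4, 96.8 and 90.8 CPM in the control libraries and 589, 576 and 655 CPM in the knockout libraries. Every knockout library exceeded every control library, a change of 2.70 ± 0.08. SLC30A10, a manganese exporter, rose by 4.24 from 0.765 ± 0.561 to 14.2 ± 0.576 CPM. The glycine transporter SLC6A9, which feeds heme synthesis, rose by 1.69 and SLC25A39 by 1.24. The drug and glutathione-conjugate exporter ABCC1 fell by 1.27.

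Genes of late erythroid maturation were higher with no exception among calls. Of the list, 29 of 33 tested members were called higher and 0 lower, with a median log2 change of 0.82. Besides TRIM10 and TSPAN5, it included BPGM, the enzyme that makes the hemoglobin ligand bisphosphoglycerate. BPGM measured 17.9, 16.9 and 19.4 CPM in the control libraries and 79.4, 82.5 and 83.4 CPM in the knockout libraries. Its groups were far apart with a change of 2.18 ± 0.09 (adjusted p = 1.17e-11 in edgeR's quasi-likelihood test). HEMGN, a nuclear regulator of erythroid cells, measured 240.3, 228 and 222 CPM in the control libraries and 718, 726 and 687 CPM in the knockout libraries, a change of 1.63 ± 0.10 with no overlap. RUNDC3A rose by 3.31, the selenium-binding protein gene SELENBP1 by 2.99, TSPO2 by 2.97 and the ubiquitin-conjugating enzyme gene UBE2H by 1.68. The survival factor BCL2L1 rose by 1.18 and the alpha-globin chaperone AHSP by 0.76. Carbonic anhydrases CA2 and CA1 rose by 0.79 and 0.35. CPEB4, a translational repressor of terminal erythroid differentiation that is on none of the lists, rose from 56.4 ± 1.99 to 303 ± 5.16 CPM.

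**Figure D3:**
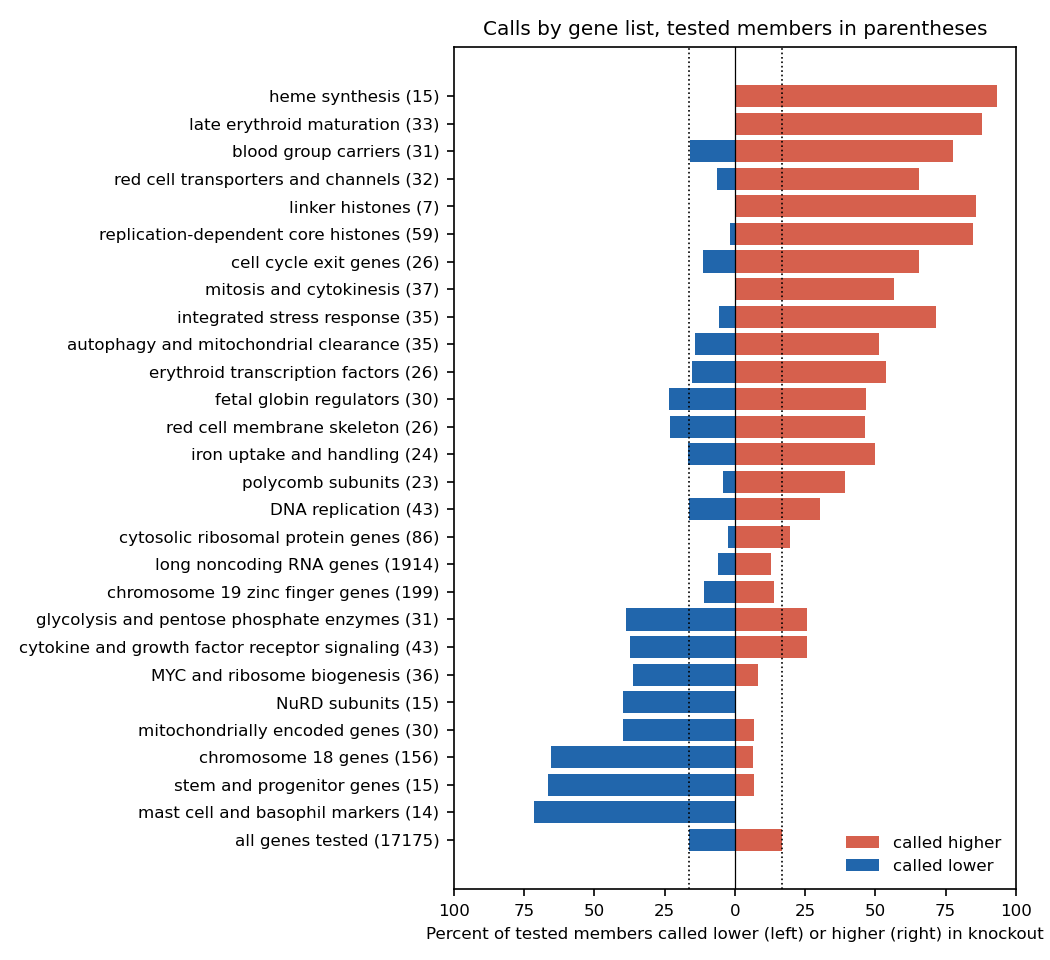
Percent of tested members called lower (blue, left) or higher (red, right) in knockout for 27 gene lists and for all genes tested, with the number tested in parentheses and dotted lines at the shares over all genes (16.3% lower, 16.8% higher). Heme synthesis and late erythroid maturation reach furthest right and mast cell markers furthest left; DNA replication and ribosomal protein genes turn to more lower than higher calls, and chromosome 19 zinc finger and long noncoding genes likewise, while fetal globin regulators and polycomb subunits have equal numbers both ways, when libraries are scaled by their totals alone.

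Transcription factors that drive erythroid maturation were among the genes that rose. For this list 14 of 26 tested members were called higher and 4 lower, with a median log2 change of 0.32, and 2 lower without control replicate 1 or knockout replicate 2. FOXO3, which directs the late erythroid program and autophagy genes, measured 133, 119 and 135 CPM in the control libraries and 426, 421 and 494 CPM in the knockout libraries. Knockout libraries were all above control, with a change of 1.79 ± 0.08. The partner pair GATA1 and TAL1 rose by 0.60 and 0.86, NFE2 by 1.10, E2F2 by 1.70, KLF13 by 1.22 and KLF1 by 0.48. STAT5A, a signal transducer of the erythropoietin receptor, fell by 0.59. The myeloid factor SPI1, or PU.1, had a change of -1.34 ± 0.36, with an adjusted p of 0.00808 in edgeR's quasi-likelihood test, or 0.0533 without control replicate 2.

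More autophagy genes rose than fell. In all, 18 of 35 tested members were called higher and 5 lower, with a median log2 change of 0.47, but 18 higher and 9 lower with a median of 0.32 under scaling by library totals, and 1 to 3 lower without control replicate 1 or 3 or knockout replicate 2 or 3. GABARAPL1, an ATG8-type protein of the autophagosome, measured 2.06, 1.53 and 1.79 CPM in the control libraries and 19.3, 23.7 and 23.9 CPM in the knockout libraries. The change was 3.64 ± 0.18 with no overlap. The initiating kinase ULK1 rose by 1.93, the receptor OPTN by 1.43, the protease ATG4A by 1.64, WIPI1 by 1.30 and MAP1LC3B by 1.10. ULK2 fell by 0.88. BNIP3L, the receptor for mitochondrial removal in reticulocytes, measured 442 against 381 CPM, a change of -0.21 ± 0.08 with an adjusted p of 0.0401 in edgeR's quasi-likelihood test, or 0.0992 without control replicate 1, 0.157 without control replicate 3, 0.0657 without before-stage control replicate 2, 0.0608 without knockout replicate 1, 0.0617 without knockout replicate 2 and 0.151 without knockout replicate 3.

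All 5 tested fetal and embryonic globin transcripts, of 6 listed, were higher. The kit removes globin mRNA, so these are leftover levels. HBG2 (chr11:5248274-5645789, minus strand), one of the gamma-globin genes, measured 1.41, 1.09 and 1.89 CPM in the control libraries and 28.5, 61.4 and 68.9 CPM in the knockout libraries. Every knockout library was far above every control library, with knockout replicate 1 the lowest of them, and the change was 5.20 ± 0.49 (adjusted p = 2.83e-07 in edgeR's quasi-likelihood test). Embryonic zeta-globin HBZ rose by 4.11, HBG1 by 4.09, and the cluster's noncoding genes BGLT3 and HBBP1 by 4.05 and 3.96. Of the 2241 exon bases of HBG2, 1187 are shared with another annotated gene, and of the 808 of HBG1, 580 are, so counts between them are uncertain. Adult-stage globins spread widely. HBB measured 197, 104 and 371 CPM in the control libraries and 1855, 667 and 282 CPM in the knockout libraries. Knockout replicate 1 stood highest and the groups overlapped. The change was 2.07 ± 0.67 with an adjusted p of 0.0243 in edgeR's quasi-likelihood test, and the adjusted p was 0.0626 in the DESeq2 alternative, 0.0823 without control replicate 1, 0.0908 without control replicate 2 and 0.227 without knockout replicate 1. HBA2 overlapped too, with a change of 2.00 ± 0.68 and an adjusted p of 0.0312, or 0.0810 in the DESeq2 alternative, 0.104 without control replicate 1, 0.110 without control replicate 2 and 0.279 without knockout replicate 1. HBD rose by 1.52.

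Known regulators of fetal globin did not move one way. Of this list 14 of 30 tested members were called higher and 7 lower, with a median log2 change of 0.18, but 8 higher and 8 lower with a median of 0.02 under scaling by library totals. Among repressors of gamma-globin, BCL11A measured 31.1, 23.9 and 32.3 CPM in the control libraries and 46.4, 44.2 and 42.7 CPM in the knockout libraries. Its groups did not overlap and the change was 0.62 ± 0.11. SOX6, its partner, measured 22.7, 19.5 and 20.8 CPM in the control libraries and 117, 106 and 111 CPM in the knockout libraries, a change of 2.41 ± 0.10. ZBTB7A, the other main repressor, measured 31.0 against 34.7 CPM with a change of 0.15 that was not called. MYB fell by 0.77 from 442 ± 10.8 to 259 ± 4.39 CPM, and KDM1A, or LSD1, by 0.38. LIN28B, which can restore gamma-globin when expressed in adult cells, rose from 0.153 ± 0.112 to 2.38 ± 0.326 CPM, a change of 3.90 ± 0.46. HMGA2, an architectural chromatin protein, fell by 1.31. HIC2, a repressor of BCL11A, rose by 0.96 and the heme-regulated kinase EIF2AK1 by 0.82.

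Most NuRD subunits other than MBD2 were not called. Over the whole NuRD list, with MBD2 not set apart, 0 of 15 tested members were called higher and 6 lower. The median log2 change was -0.16. Without control replicate 1 or 2 or 3 or knockout replicate 1 or 2, 2 to 3 were called lower. MTA3 had a larger change than the other subunits besides MBD2. It measured 9.19, 8.21 and 10.1 CPM in the control libraries and 3.52, 3.98 and 2.67 CPM in the knockout libraries, a change of -1.40 ± 0.19 with no overlap. MBD3, which takes the place of MBD2 in a separate form of the complex, measured 49.4 against 56.7 CPM and was not called. HDAC1, MTA2 and RBBP4 had changes of 0.12, 0.06 and 0.05, none of them called. The ATPase CHD4 had a change of -0.19 ± 0.06, called at an adjusted p of 0.0284 in edgeR's quasi-likelihood test but at 0.0780 without control replicate 1, 0.0708 without control replicate 2, 0.0600 without control replicate 3, 0.106 without knockout replicate 1 and 0.0943 without knockout replicate 2.

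Among DNA methylation genes 6 of 18 tested members were called higher and 2 lower, with a median log2 change of 0.03, but 4 higher and 4 lower with a median of -0.13 under scaling by library totals, and 1 lower without control replicate 3 or knockout replicate 1. TET1, which oxidizes 5-methylcytosine, measured 0.188, 0.509 and 0.737 CPM in the control libraries and 4.10, 3.87 and 5.20 CPM in the knockout libraries. Knockout libraries stood far above control, with a change of 3.17 ± 0.32. TET3 rose by 0.90 and UHRF1, which guides DNMT1 to replicated DNA, by 0.44. DNMT1 and TET2 measured 366 against 373 CPM and 44.8 against 45.3 CPM and were not called. The reader MBD1, which lies on chromosome 18 like MBD2, fell by 0.42. For polycomb subunits 9 of 23 tested members were called higher and 1 lower, with a median log2 change of 0.16, but 3 higher and 3 lower with a median of 0.01 under scaling by library totals, and 3 lower without before-stage knockout replicate 2. CBX7, which binds trimethylated lysine on histone H3, rose by 2.06, PCGF5 by 0.86 and EZH1 by 0.61, and EED fell by 0.35. EZH2 measured 72.7 against 81.9 CPM, not called. In the ETO and LSD1-CoREST corepressor list 4 of 19 tested members were called higher and 4 lower, with a median log2 change of -0.05. Each direction held 21.1%, near the 16.8% and 16.3% over all genes. Scaling by library totals gave 1 higher and 8 lower with a median of -0.21. Leaving out control replicate 1 or knockout replicate 2 gave 2 lower. RUNX1T1 rose, whereas its family member CBFA2T3, or ETO2, had a change of -0.50 ± 0.14, with an adjusted p of 0.0130 in edgeR's quasi-likelihood test, or 0.0677 without control replicate 1 and 0.0893 without knockout replicate 2.

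Most stem and progenitor genes were lower. Of them 1 of 15 tested members were called higher and 10 lower, with a median log2 change of -0.59. GATA2 measured 28.0, 27.1 and 24.4 CPM in the control libraries and 9.50, 9.36 and 12.0 CPM in the knockout libraries. The groups were well apart, a change of -1.38 ± 0.15. LMO4, a LIM-domain adaptor, was the 1 that rose, by 0.71. KIT, the receptor for stem cell factor, measured 589, 578 and 591 CPM in the control libraries and 359, 369 and 381 CPM in the knockout libraries, with a change of -0.66 ± 0.06 and no overlap. HHEX fell by 1.89, ETV6 by 0.85 and HOXB4 by 0.83. ERG held 18 counts over the control libraries and 0 over the knockout libraries, at least 4.41-fold lower against a floor of 3 counts over the group, while the exact 95% interval of the ratio reaches up to 0.309 (counting error only). MYC measured 202 against 195 CPM and was not called.

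Most tested mast cell and basophil markers were lower. The list holds 23 genes, and 0 of 14 tested members were called higher and 10 lower, with a median log2 change of -1.86. The prostaglandin-degrading enzyme HPGD measured 53.5, 45.7 and 53.4 CPM in the control libraries and 9.03, 9.25 and 6.89 CPM in the knockout libraries. Its change was -2.58 ± 0.12 with a wide gap between the groups. Tryptase genes TPSAB1 and TPSB2, which share much of their sequence, fell by 2.18 and 2.10, HPGDS of prostaglandin D2 synthesis by 2.14 and SIGLEC6 by 2.42. MS4A2, a chain of the IgE receptor, had a change of -2.06 ± 0.63 at 1.21 against 0.309 CPM, with an adjusted p of 0.0184 in edgeR's quasi-likelihood test, or 0.0838 without knockout replicate 1 and 0.0949 without knockout replicate 2. The other IgE receptor gene FCER1A gave 2 counts in control and 1 in knockout, and the chymase gene CMA1 gave 1 and 1. Summed over the list, levels were 852 to 883 CPM in control and 464 to 477 CPM in knockout libraries, most of it KIT. In bulk libraries fewer cells of a type and less RNA per cell cannot be told apart.

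Receptor and signaling genes differed in direction. Over the list 11 of 43 tested members were called higher and 16 lower, with a median log2 change of -0.01. The erythropoietin receptor EPOR measured 40.4, 42.8 and 38.1 CPM in the control libraries and 73.5, 75.6 and 94.1 CPM in the knockout libraries. The change was 1.00 ± 0.14, and its kinase JAK2 and target CISH rose by 1.01 and 1.28. Insulin signaling genes INSR and IRS2 rose by 1.00 and 1.36. The shared beta chain CSF2RB of the interleukin-3, interleukin-5 and GM-CSF receptors measured 35.7, 38.1 and 39.7 CPM in the control libraries and 7.62, 8.07 and 10.4 CPM in the knockout libraries, with no overlap and a change of -2.13 ± 0.12. TGFBR2 fell by 2.04, IL4R by 1.59, IFNGR2 by 1.36 and the Src family kinase LYN by 0.94. Among ID and E-protein factors 3 of 10 tested members were called higher and 5 lower, with a median log2 change of -0.32, but 1 higher and 6 lower with a median of -0.48 under scaling by library totals, and 1 higher without control replicate 1 or 2 or 3 or knockout replicate 2 or 3, and 3 lower without control replicate 1 or knockout replicate 2. ID4 fell by 5.25 from 9.63 ± 0.929 to 0.255 ± 0.158 CPM, ID2 by 0.97, and ID1 measured 36.9 against 34.2 CPM, not called.

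Glycolysis and pentose phosphate genes changed in both directions. In this list 8 of 31 tested members were called higher and 12 lower, with a median log2 change of -0.08. PKM, the pyruvate kinase that maturing red cells replace with PKLR, measured 19.6, 18.6 and 17.2 CPM in the control libraries and 4.34, 4.73 and 5.34 CPM in the knockout libraries. All knockout libraries were far below control, with a change of -1.95 ± 0.15 (adjusted p = 3.03e-08 in edgeR's quasi-likelihood test), while PKLR measured 74.4 against 76.7 CPM and was not called. ENO1 fell by 0.82, PFKP by 0.94, HK2 by 0.52, PGK1 by 0.46 and LDHA by 0.36. The muscle-type phosphofructokinase PFKM, also found in red cells, rose by 1.14 and the red cell hexokinase gene HK1 by 0.49. PGD, TALDO1 and RPIA of the pentose phosphate branch rose by 0.44, 0.48 and 0.56.

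**Figure D4:**
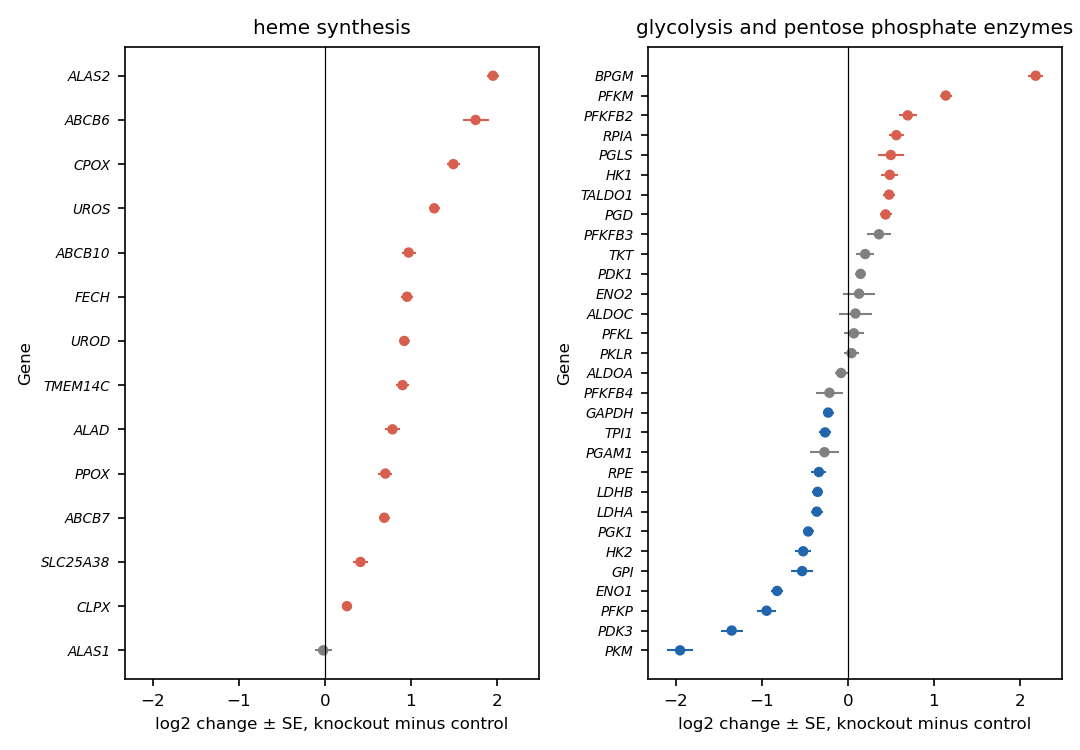
Log2 change ± SE (knockout minus control, after differentiation) of tested genes of heme synthesis (left) and of glycolysis and the pentose phosphate branch (right), red where called higher, blue where called lower and grey where not called, leaving out 1 member of each list. Heme synthesis has 13 red points of 14, while the right panel runs from BPGM at 2.18 to PKM at -1.95 with 8 red and 12 blue points.

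Antioxidant genes also differed member by member, with 10 of 32 tested members higher and 7 lower (median log2 change 0.10), but 8 higher and 12 lower with a median of -0.06 under scaling by library totals. GSTP1, a glutathione transferase, measured 0.281, 0.799 and 0.421 CPM in the control libraries and 4.10, 5.06 and 5.76 CPM in the knockout libraries. Its groups were far apart, a change of 3.20 ± 0.35. Peroxiredoxin PRDX2, one of the most abundant red cell proteins, rose from 184 ± 9.89 to 486 ± 47.7 CPM and catalase, CAT, by 0.89. The transferases GSTM3 and GSTM4, members of one gene family, fell by 1.38 and 1.43 and NQO1 by 1.32. The counts over serine and one-carbon genes were 6 of 22 tested members higher and 4 lower (median log2 change 0.00), but 3 higher and 6 lower with a median of -0.16 under scaling by library totals, and 1 to 2 lower without control replicate 1 or 2 or knockout replicate 1 or 3, with FTCD, which links histidine breakdown to folate, at 2.12 and ALDH1L2 at 1.72. PHGDH and PSAT1 of serine synthesis measured 28.8 against 27.4 CPM and 279 against 288 CPM, not called. Cholesterol synthesis had 7 of 24 tested members higher and 3 lower (median log2 change 0.07), but 5 higher and 4 lower with a median of -0.08 under scaling by library totals. HMGCS1, its cytosolic entry enzyme, fell by 0.96 from 1152 ± 62.7 to 593 ± 37.8 CPM, and the regulators SREBF2 and INSIG1 rose by 0.67 and 0.63.

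Stress response genes were mostly higher. For the integrated stress response 25 of 35 tested members were called higher and 2 lower, with a median log2 change of 0.50, but 19 higher and 5 lower with a median of 0.35 under scaling by library totals. TRIB3, a pseudokinase induced by ATF4, measured 31.2, 34.7 and 33.8 CPM in the control libraries and 107, 123 and 160.0 CPM in the knockout libraries. The change was 1.96 ± 0.14 with no overlap. ATF5 rose by 2.19, SESN2 by 1.26, DDIT3, or CHOP, by 0.98 and the endoplasmic reticulum chaperone HSPA5, or BiP, by 1.53. VLDLR, a lipoprotein receptor that this response can induce, fell by 2.12. Of p53 targets 8 of 25 tested members were called higher and 1 lower, with a median log2 change of 0.17, but 6 higher and 5 lower with a median of 0.01 under scaling by library totals, and 2 lower without knockout replicate 2. GDF15, a secreted factor that erythroblasts release, measured 32.8, 35.8 and 33.7 CPM in the control libraries and 154, 162 and 192 CPM in the knockout libraries, a change of 2.31 ± 0.13. The knockout libraries were all above control. BBC3 and GADD45A rose by 1.26 and 1.23, whereas the core targets MDM2 and CDKN1A measured 99.5 against 102 CPM and 2.90 against 3.77 CPM, not called. For apoptosis regulators the calls were 6 of 27 tested members higher and 5 lower (median log2 change 0.00). That is 22.2% and 18.5%, near the 16.8% and 16.3% over all genes. Scaling by library totals gave 5 higher and 10 lower with a median of -0.15. BMF, a BH3-only protein that promotes apoptosis, rose by 1.76, and CASP6 and APAF1 fell by 1.38 and 0.91.

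Cell cycle exit genes were higher together with mitotic genes. Of the first list 17 of 26 tested members were called higher and 3 lower, with a median log2 change of 0.52, but 14 higher and 6 lower with a median of 0.36 under scaling by library totals. CCND3, the cyclin that sets the number of erythroid divisions, measured 36.0, 40.5 and 37.0 CPM in the control libraries and 105, 114 and 135 CPM in the knockout libraries. Its change was 1.64 ± 0.12 with no overlap. The inhibitor CDKN1C rose by 1.53, CDKN1B, or p27, by 0.69 and the antiproliferative gene BTG2 by 1.49, while the kinase CDK6 fell by 0.51. For mitosis and cytokinesis 21 of 37 tested members were called higher and 0 lower, with a median log2 change of 0.25, but 10 higher and 3 lower with a median of 0.10 under scaling by library totals. The contractile ring protein ANLN rose by 0.65 and MKI67 by 0.51. DNA replication genes had 13 of 43 tested members higher and 7 lower (median log2 change 0.13), and 8 higher without knockout replicate 3, and 3 to 4 lower without control replicate 2 or 3 or before-stage control replicate 2 or 3 or knockout replicate 2, but 3 higher, 12 lower and a median of -0.03 under scaling by library totals. RRM2 and MCM2 rose by 0.64 and 0.59 and PRIM2 fell by 0.42.

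Histone genes were mostly higher. Of replication-dependent core histones 50 of 59 tested members were called higher and 1 lower, with a median log2 change of 0.48, but 37 higher and 2 lower with a median of 0.32 under scaling by library totals, and 0 lower without control replicate 2 or knockout replicate 1 or 2. HIST4H4, named after its values were seen, was the 1 called lower (log2 change -0.30, SE 0.09, edgeR adjusted p = 0.0179), but it missed the threshold when control replicate 2 was left out (adjusted p = 0.101), when knockout replicate 1 or 2 was (0.0651 and 0.0701), and with no filter (0.0593). These genes are near copies, so single members are uncertain. The kit keeps transcripts without a poly(A) tail, which is how these histones are made in S phase. Linker histones had 6 of 7 tested members higher and 0 lower (median log2 change 0.50), but 5 higher and 1 lower with a median of 0.35 under scaling by library totals. H1F0, the variant that builds up in cells that stop dividing, measured 41.8, 53.7 and 46.5 CPM in the control libraries and 217, 260.1 and 244 CPM in the knockout libraries. Each knockout library was far above control, a change of 2.34 ± 0.09. Genes of MYC and ribosome biogenesis had 3 of 36 tested members higher and 13 lower (median log2 change -0.16), but 1 higher and 20 lower with a median of -0.31 under scaling by library totals, and 6 to 8 lower without control replicate 1 or knockout replicate 1 or 2. RRP1B and POLR1C fell by 0.42 and 0.41, and MXI1, a MYC antagonist, rose by 1.15. Cytosolic ribosomal protein genes had 17 of 86 tested members higher and 2 lower (median log2 change 0.07). The share higher, 19.8%, was near the 16.8% over all genes. Leaving out control replicate 1 or 3 or knockout replicate 2 or 3 gave 5 to 10 higher. Scaling by totals turned the calls to 1 higher and 15 lower.

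Antigen presentation genes changed in both directions. For this list 8 of 19 tested members were called higher and 6 lower, with a median log2 change of -0.14, but 7 higher and 8 lower with a median of -0.29 under scaling by library totals. The class I heavy chains HLA-B and HLA-C, which share sequence, rose by 1.91 and 1.36, B2M by 0.67 and the class I activator NLRC5 by 2.85. Immunoproteasome subunits PSMB8 and PSMB10 fell by 0.80 and 0.82, the transporter TAP1 by 0.54 and the trimming enzyme ERAP2 by 1.57. Interferon response genes had 6 of 23 tested members higher and 3 lower (median log2 change 0.05), but 5 higher and 6 lower with a median of -0.10 under scaling by library totals, and 5 lower without control replicate 3 or before-stage knockout replicate 2. ISG20, an exonuclease, rose by 3.33, IRF1 by 0.86 and USP18 by 1.64, while IFITM2 and BST2 fell by 1.03 and 1.03. The common targets IFIT1 and ISG15 measured 3.85 against 3.65 CPM and 2.58 against 3.03 CPM, not called.

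Smaller lists added single genes. Glucocorticoid targets had 8 of 19 tested members higher and 3 lower (median log2 change 0.46), led by PIK3IP1, an inhibitor of PI3 kinase, at 2.97 and KLF9 at 1.54, with FKBP5 falling by 0.63. Immediate early genes had 5 of 18 tested members higher and 1 lower (median log2 change 0.27), but 5 higher and 2 lower with a median of 0.11 under scaling by library totals, with JUN and ATF3 rising by 1.01 and 1.01. Metallothioneins and zinc transporters had 6 of 23 tested members higher and 8 lower (median log2 change -0.10). The zinc exporter SLC30A1 rose by 1.62 and the importers SLC39A10 and SLC39A6 fell by 0.52 and 0.70. Imprinted genes had 3 of 12 tested members higher and 2 lower (median log2 change 0.12). That is 25% and 16.7%, against 16.8% and 16.3% over all genes. Scaling by library totals gave 3 higher and 2 lower with a median of -0.03. Leaving out control replicate 2 or knockout replicate 3 gave 1 lower. The maternally expressed CDKN1C was highest and PHLDA2 was at -0.76. Only 7 germline and cancer-testis genes were tested, with 4 of 7 tested members higher and 0 lower (median log2 change 0.44), and 1 lower without knockout replicate 1. Among mitochondrially encoded genes 2 of 30 tested members were called higher and 12 lower, with a median log2 change of -0.32, but 1 higher and 16 lower with a median of -0.48 under scaling by library totals, and 0 to 1 higher without control replicate 1 or 2 or knockout replicate 1 or 2 or before-stage knockout replicate 3. Their summed level was nonetheless higher in every knockout library, at 19607 to 31827 CPM against 15583 to 19069 CPM in control. The mitochondrial ribosomal RNA MT-RNR1 had a change of 1.68 ± 0.47, with an adjusted p of 0.0106 in edgeR's quasi-likelihood test, or 0.0534 without control replicate 1 and 0.0764 without knockout replicate 1.

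A few genes were close to absent in one group. EPHA3, an ephrin receptor, had 0 counts over the control libraries and 68 over the knockout libraries, at least 30.8-fold higher against a floor of 3 counts over the group, and the exact 95% interval of the ratio starts lower, at 24.4. RNF182, a ubiquitin ligase, had 2 and 130, a ratio of 88.4 (exact 95% interval 24.0 to 738, counting error only). TEX11, a meiosis gene of the X chromosome, had 3 and 96, a ratio of 43.5 (14.5 to 215). In the other direction MPDZ, a protein of tight junctions, had 89 and 1, a ratio of 0.0153. ARSD had 48 and 2 counts and TCEAL9 59 and 2. ICAM3 had 51 and 3, but 2101 of its 2950 exon bases are shared with another annotated gene, so its source is uncertain.

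Of 1914 long noncoding genes tested, 249 were higher (13.01%) and 114 lower (5.96%), and scaling by totals gave 161 and 232. At the TMM scaling both shares were below the 16.8% and 16.3% over all genes. MALAT1, a nuclear RNA, measured 9809, 10487 and 10295 CPM in the control libraries and 17245, 20350.0 and 17343 CPM in the knockout libraries, with 2042 of its 8755 exon bases shared with another gene. Its groups did not overlap, and the change was 0.84 ± 0.09. AC104071.1 on chromosome 4 rose by 3.76 from 0.956 ± 0.492 to 13.6 ± 2.36 CPM. LINC01344 on chromosome 1 rose by 2.60 and MIR22HG, the host of a microRNA, by 2.14. AC079466.1 on chromosome 19 fell by 2.64 from 15.3 ± 1.29 to 2.40 ± 0.542 CPM.

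Chromosome 18 carries MBD2. Of its 156 tested protein-coding genes 102 were lower and 10 higher, 65.4% and 6.41%. The median was -0.43, while chromosome 13, the next lowest, had -0.12 and 30.4% lower, and chromosome 22, the highest, had 0.05. With the chromosome 18 genes left out, 2876 genes were called higher and 2656 lower. For zinc finger genes on chromosome 19 the calls were 28 of 199 tested members higher and 22 lower (median log2 change 0.03), and 18 and 51 with scaling by totals. At the TMM scaling that is 14.1% and 11.1%, below the 16.8% and 16.3% over all genes.

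The same contrast before differentiation used 6 other libraries, grown in expansion medium with stem cell factor and dexamethasone, and called 2958 genes (17.2%). Of the 5687 genes called after differentiation, 1797 were called in the same direction before it, 922 higher and 875 lower, 111 were called in the opposite direction, and 3779 were not called before. The difference of the knockout effect between stages was tested directly as an interaction contrast, and 2227 genes were called (13%). Among those called after differentiation 1895 had such a difference. FOXO3 changed by 0.39 ± 0.08 before and 1.79 ± 0.08 after, a difference of 1.41 (adjusted p = 6.06e-07 in edgeR's quasi-likelihood test). ARG1 changed by 1.66 ± 0.18 and 4.14 ± 0.13, a difference of 2.49. For CPEB4 the 2 values were 1.06 and 2.42 and for ALAS2 0.64 and 1.96, so both of these erythroid genes had the larger effect after differentiation. RHEX went from -1.06 to -3.60 and AHNAK from -0.91 to -2.51. SLC4A1 and TRIM10 went the other way, from 5.60 to 4.33 and from 5.64 to 4.76. ACSM3, a mitochondrial acyl-CoA synthetase, was lower before at -0.76 and higher after at 1.24. TRIM67, a ubiquitin ligase best known from neurons, was higher before at 1.13 and lower after at -2.48. MYO18B and TSPAN5 differed by -0.77 and 0.03 between stages, neither past the threshold.

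**Figure D5:**
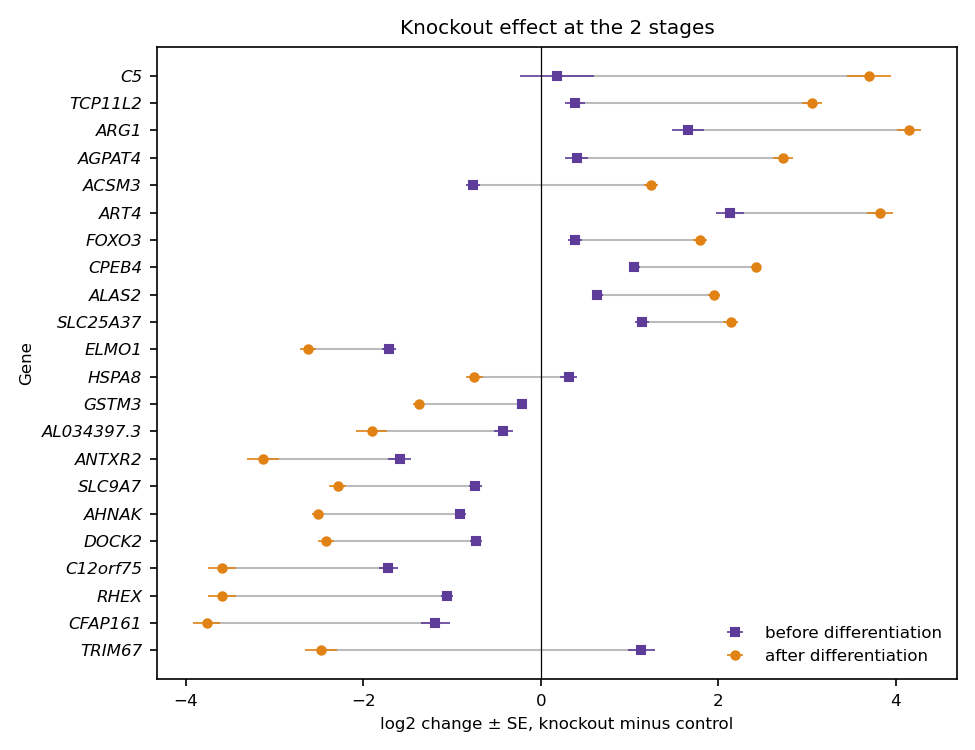
Log2 change ± SE (knockout minus control) of 22 genes before (purple squares) and after (orange circles) differentiation, ordered by the difference between the 2 stages. C5, TCP11L2 and ARG1 sit at the top with much larger increases after differentiation, RHEX and CFAP161 near the bottom with deeper decreases, and ACSM3 and TRIM67 have their points on opposite sides of 0.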

How the data were processed

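RNA sequencing of HUDEP-2 cells gave 12 libraries in 4 groups of 3. The deposited table holds raw counts, with no normalization, for 60483 genes. Per the file headers, the authors counted read pairs over exons with featureCounts 1.4.6-p4 and GENCODE release 22, build hg38, with no strand option, so overlapping genes are uncertain. The submitters' processing notes name featureCounts 1.2.6, Trimmomatic, FastQC, Subread 1.6.2 and edgeR 3.18.1. Per the labels, a stranded kit removed ribosomal RNA and globin mRNA. GENCODE release 29 named 56753 genes.

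The test was edgeR 4.0.16 (R 4.3.3): filterByExpr over 4 groups, TMM, group means over all 12 libraries (common biological coefficient of variation 0.089), two-sided quasi-likelihood F-test, Benjamini-Hochberg adjustment over 17175 genes and a threshold of 0.05. The standard error is the log2 change divided by the root of F. On simulated data 82% of 1.5-fold and 100% of 2-fold changes were recovered in 50 genes each of 17175, with 10 unchanged genes called. The changed genes were drawn from the better expressed ones, so recovery at low levels was not measured. Far fewer genes were changed there than were called in the data. DESeq2 1.42.0, other scalings and filters, a replicate block and leaving out each library were alternatives.

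Genes and lists were chosen with earlier results of these data known. The text names MBD2, globins, per direction the 12 largest changes (mean log2 CPM of at least 2, groups apart), the 8 largest CPM changes, up to 6 genes near absent in one group, 5 noncoding genes and 6 stage differences, and per list up to 4 called members by adjusted p or members known for their role. Other members named were picked for size or role after their values were seen. Lists are described by counts and medians without a list test. A few members of these lists count in the totals and are not reported here by name.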

Additional observations from a re-analysis of the deposited data

Results flagged for a closer look

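The knockout effect after differentiation, less the effect before it, passed an adjusted p of 0.05 in edgeR's quasi-likelihood test of the interaction for 41 genes of the text's choice, with adjusted p from 1.94e-08 to 0.0436. The values are differences of log2 changes and each was tested directly. Genes are grouped by the sign of the fitted effect at each stage, whether or not that effect was called. Some effects before differentiation were small. Genes higher in knockout at both stages, and by more after differentiation, had these differences: CPEB4 1.37, TCP11L2 2.67, ALAS2 1.32, AGPAT4 2.32, FOXO3 1.41, ARG1 2.49, SLC25A37 1.00, ART4 1.68, C5 3.52, MIR22HG 1.43 and TFRC 0.65. Genes lower at both stages, and by more after it, were AHNAK -1.60, DOCK2 -1.69, GSTM3 -1.16, RHEX -2.54, SLC9A7 -1.55, CFAP161 -2.58, C12orf75 -1.88, ELMO1 -0.91, AL034397.3 -1.48, ANTXR2 -1.54 and SAMD5 -1.16. Further ones were MACF1 -0.69, DOCK10 -1.18, ZNF521 -1.24, LINC01366 -1.09, AC004656.1 -0.60, SCN2A -1.0, RRN3P2 -0.50, HMGCS1 -0.41 and ICAM3 -2.14. Higher at both stages but by less after differentiation were SLC4A1 -1.27, LINC01344 -1.49 and TRIM10 -0.88. The fitted effects had opposite signs at the 2 stages, whether or not each was called, for ACSM3 2.00, TRIM67 -3.61, HSPA8 -1.06, HSP90AA1 -0.77, CA1 0.54, GLUL -0.43 and MTCO1P12 -0.68. No explanation was tested for these differences.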

How the results depend on the processing

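Over 338 named genes and all alternatives run, 7078 values were recomputed: 6885 kept direction and call, 185 lost the call, 8 gained one and 0 reversed, and 285 genes kept their call throughout. Scaling by library totals alone called 1843 genes higher and 4826 lower, 27.6% of calls higher against 50.7% with TMM, and 604 and 894 by at least 2-fold. Leaving out 1 library in turn gave 2466 to 3172 genes higher, 2240 to 2967 lower, 769 to 846 at least 2-fold higher, 566 to 623 at least 2-fold lower, and 1632 to 2375 with a stage difference. DESeq2 called 2526 higher and 2541 lower, the 6 libraries alone 3070 and 2954, and no filter 2708 and 2762. The main fit did not pair libraries by replicate number. Deviations of same-numbered libraries after differentiation correlated at 0.021, 0.150 and 0.0745, and those of other-numbered libraries at -0.131 to 0.0495. Before differentiation the same-numbered values were 0.241, 0.0940 and 0.0691. Whether equal numbers mark a shared batch was not tested. With a replicate block 3009 genes were higher and 2904 lower. A check of promoter CG content against the calls was void, since 9291 of 11652 tested protein-coding genes (79.7%) had a window, under the 80% set, and its shorter window was not run. Depth limits genes near absent in one group, whose ratios carry wide counting intervals.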

Other observations

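The libraries also differed in how many genes were seen. At 1 common depth of 7667997 counts, 29133 to 29288 genes had at least 1 count in control and 27970 to 28513 in knockout libraries. Long noncoding genes took 2.67 to 3.47% of control and 3.82 to 6.67% of knockout counts, and protein-coding genes 73.4 to 74.4% and 69.8 to 72.7%. Among the long noncoding genes, FP671120.3 measured 4471, 2525 and 10342 CPM in the control libraries and 42430.0, 15147 and 8308 CPM in the knockout libraries. Its groups overlapped and knockout replicate 1 stood far above the rest. FP671120.3 alone made up a large part of the long noncoding share in knockout replicate 1, and the shares without it were not computed.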
